A study of Mus musculus with 5 samples.

Results

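Tcf7, Bach2, Foxo1, Foxo3, Foxp1, Klf2 and Klf3 encode transcription factors that hold resting T cells out of division, and they were taken by name as 7 of the 11924 genes listed in each of 5 single-cell count tables. The cells were sorted as CD4+CD45.1+ SMARTA cells, which are CD4 T cells carrying 1 transgenic T cell receptor, and all came from mice whose genotype is given as C57BL/6. In the combined library, mice bearing a tumor had received diphtheria toxin, intended to remove regulatory T cells (Tregs), on days 0 and 2 and antibody against CTLA4 on days 0, 2 and 5. The antibody library came from mice given the antibody on the same days without toxin, the Treg-depleted library from mice given toxin without antibody, and the untreated library from tumor-bearing mice with neither. These 4 libraries were sorted on day 8 from the inguinal lymph node on the tumor side, whereas the naive library held freshly isolated SMARTA cells from spleen, so that tissue and exposure to the tumor cannot be told apart in any comparison with it. The labels name the injected tumor as MC38 in one place and as PyMG in another, do not give the allele through which the toxin acted, and tie neither the PBS nor the isotype antibody that they mention to a library.

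Quiescence in a naive T cell is kept up by a small set of transcription factors, and signals through the antigen receptor and CD28 take it down. Foxo1 and Foxo3 are forkhead factors that PI3K and Akt signalling drives out of the nucleus, and Foxo1 switches on Klf2 and Il7r in mouse T cells. Klf2 in turn switches on S1pr1, the receptor that lets T cells leave lymph nodes, while Klf3 is a repressor of the same zinc finger family. Foxp1 is a forkhead repressor that keeps naive T cells at rest, Bach2 represses effector genes, and Tcf7 encodes TCF-1, a factor of naive, memory and stem-like T cells. CTLA4 competes with CD28 for its ligands, and its gene is highly expressed in Tregs, which Foxp3 defines.

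Each group was 1 library, so no value has a replicate and no comparison was tested. The libraries held 4343, 4566, 2186, 1099 and 7955 cells in the order combined, antibody, Treg-depleted, untreated and naive, with medians of 2468, 4797, 5208.5, 3133 and 1683 unique molecular identifiers (UMIs) per cell over the listed genes, and pairs of libraries shared between 0 and 10 cell barcodes. Both libraries labelled as Treg-depleted held more Foxp3-positive cells than the others: 1649 cells of the combined library (38.0%) and 1284 of the Treg-depleted library (58.7%) had a Foxp3 UMI, against 54 of the antibody library (1.18%), 16 of the untreated library (1.46%) and 72 of the naive library (0.905%). Of the Foxp3-positive cells, 307 of 1649 in the combined library and 275 of 1284 in the Treg-depleted library had a UMI of the SMARTA receptor genes Trbv13-1 or Trav14d-3-dv8, compared with 1326 of 2694 and 495 of 902 Foxp3-negative cells. The 5 listed genes of a CD4 T cell list of 12 all had UMIs in each library, which says nothing of the other cells a library may hold. Cd4, the coreceptor gene of the sort, was at 239 CPM in the combined, 611 in the antibody, 267 in the Treg-depleted, 731 in the untreated and 434 in the naive library over all cells, so both libraries given toxin had the least Cd4. Because of the Foxp3-positive cells, levels are given over all cells and again over receptor-positive Foxp3-negative cells, of which there were 1326 in the combined, 3323 in the antibody, 495 in the Treg-depleted, 685 in the untreated and 2712 in the naive library. Foxp3-negative means without a Foxp3 UMI, so the class includes cells too shallow to show Foxp3. Over all Foxp3-negative cells, Ctla4 was at 396, 97.1, 259, 132 and 4.99 CPM in the same order of libraries. Il2ra was at 127, 3.56, 100.4, 12.2 and 8.00 CPM. The part of Treg-like cells without a Foxp3 UMI in the levels of the 7 factors was not tested.

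A level is a gene's part of all UMIs of the listed genes, summed over the cells of a class and given as CPM, and a gene is called higher or lower where 2 levels differ by at least 1.5-fold. Intervals of levels and ratios are exact, at 95%, and cover counting error only. Over all cells, the widest interval of a member's level reached 16.7% of the level, for Foxo3 in the untreated library, and the median was 3.87%. In such sums, fewer cells carrying a transcript and less of it per cell cannot be told apart. Because transcripts were counted at their 3′ ends, a member's levels are compared between cells and never with those of another member.

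Klf2 and Klf3 were the 2 members at least 1.5-fold above the untreated level in receptor-positive Foxp3-negative cells of the combined library, taken over all depths, and KLF proteins bind CACCC boxes, so the promoters of both are shown, from 250 bases before to 50 after the transcription start in RefSeq on GRCm38.p6. The capitals mark each CACCC box, searched as CCACCC on both strands (GGGTGG on the other).
Klf2, chr8:72318812-72319111, plus strand: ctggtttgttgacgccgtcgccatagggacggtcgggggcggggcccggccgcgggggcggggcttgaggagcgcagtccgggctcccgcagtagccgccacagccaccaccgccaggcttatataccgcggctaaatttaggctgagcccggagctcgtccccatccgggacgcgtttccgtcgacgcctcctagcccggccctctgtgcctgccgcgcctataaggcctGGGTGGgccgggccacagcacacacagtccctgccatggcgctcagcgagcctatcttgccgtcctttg
Klf3, chr5:64803271-64803570, plus strand: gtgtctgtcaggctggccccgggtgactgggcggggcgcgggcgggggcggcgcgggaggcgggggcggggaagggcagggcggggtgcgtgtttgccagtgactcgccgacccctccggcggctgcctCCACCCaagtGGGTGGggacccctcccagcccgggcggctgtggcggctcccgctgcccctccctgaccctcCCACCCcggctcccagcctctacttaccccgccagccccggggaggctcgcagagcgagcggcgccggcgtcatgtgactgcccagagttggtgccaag
The Klf2 window held 1 such box, its leftmost base at position -19 from the start, and the Klf3 window 3, at -121, -111 and -49. A box of this kind was present in 31.5% of 32851 mouse promoter windows of the same length. The forkhead motif GTAAACA, present in 3.65% of them, was in neither window. CACCC boxes were also found in promoter windows of Foxp1 and Tcf7, which were not above the untreated level in those cells. The box is thus not particular to the promoters shown. The Klf2 and Klf3 windows were 69.3% and 76.7% GC, against a median of 52.7% over all the promoter windows. Both genes are protein coding, with Klf2 at chr8:72319033-72321656 and Klf3 at chr5:64803388-64832901.

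Over all cells, the 7 factors were lower in the lymph node libraries than in naive cells with 3 exceptions. All 7 were at least 1.5-fold lower in the combined library, where 31.5% of all genes were, and all 7 in the Treg-depleted library, against 36.1% of all genes. In the antibody library 6 of 7 were lower, with 27.8% of all genes, and Tcf7 was the exception. In the untreated library 5 of 7 were lower, with 16.9% of all genes, and Tcf7 and Foxo3 were the exceptions. The combined library had a median log2 ratio of -1.58 over the 7 members and -0.21 over all genes compared. These comparisons share the naive library.

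The forkhead genes were lower in the 3 treated libraries than in the untreated and naive ones. Foxp1, the repressor that keeps naive T cells at rest, was at 262 CPM in the combined, 269 in the antibody, 122 in the Treg-depleted, 618 in the untreated and 1591 in the naive library. Foxo1, which antigen receptor signalling turns off through Akt, was at 145 CPM in the combined, 151 in the antibody, 120.3 in the Treg-depleted, 242 in the untreated and 413 in the naive library. Both stood highest in naive cells, next in untreated cells and lowest in the Treg-depleted library. Foxp1 was 6.06-fold lower (95% interval 5.87 to 6.26) than naive in the combined library, and Foxo1 was 2.86-fold lower (95% interval 2.72 to 3.0). Foxo3, the second PI3K-controlled forkhead factor, was at 22.0 CPM in the combined, 17.4 in the antibody, 16.5 in the Treg-depleted, 42.1 in the untreated and 48.5 in the naive library, and its untreated and naive levels did not differ beyond counting error. Against the antibody library, the combined library had a ratio of 0.975 (95% interval 0.940 to 1.01) for Foxp1 and of 0.957 (95% interval 0.911 to 1.01) for Foxo1.

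The 2 KLF genes had another order, with the combined library highest among the 4 lymph node libraries. Klf2, the activator of lymph node exit, was at 825 CPM in the combined, 555 in the antibody, 795 in the Treg-depleted, 608 in the untreated and 2355 in the naive library. Klf3, the KLF repressor, was at 183 CPM in the combined, 97.9 in the antibody, 120.0 in the Treg-depleted, 166 in the untreated and 547 in the naive library. For Klf3 the combined library exceeded both single treatments at 1.5-fold, with a ratio of 1.87 (95% interval 1.78 to 1.97) to the antibody library and of 1.53 (95% interval 1.44 to 1.62) to the Treg-depleted library. For Klf2 the ratios were 1.49 (95% interval 1.45 to 1.52) and 1.04 (95% interval 1.01 to 1.06). Klf2 was lowest with antibody alone and also low without treatment, at 23.6% and 25.8% of the naive level.

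Tcf7 set the toxin libraries apart from the others, and Bach2 had the widest range of the 7 over the libraries. Tcf7, which encodes TCF-1, was at 315 CPM in the combined, 1053 in the antibody, 258 in the Treg-depleted, 1397 in the untreated and 1252 in the naive library. The untreated library was thus above the naive one and the antibody library below both, while the toxin libraries stood far lower, the combined one 3.34-fold lower (95% interval 3.25 to 3.44) than the antibody library. Bach2, the repressor of effector genes, was at 32.6 CPM in the combined, 32.5 in the antibody, 11.0 in the Treg-depleted, 108 in the untreated and 194 in the naive library. Its combined and antibody levels coincided, with a ratio of 1.00 (95% interval 0.901 to 1.12), and the Treg-depleted level was below both. Against the untreated library, Bach2 was 9.77-fold lower (95% interval 8.18 to 11.7) in the Treg-depleted library.

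Set against the untreated lymph node, 5 of 7 members were lower in each treated library. In the combined and Treg-depleted libraries these were Tcf7, Bach2, Foxo1, Foxo3 and Foxp1, where 18.2% and 27.5% of all genes were lower. In the antibody library they were Bach2, Foxo1, Foxo3, Foxp1 and Klf3, with 6.62% of all genes. The median of all genes was itself shifted, to a log2 ratio of -0.16 in the combined and -0.21 in the Treg-depleted library, against member medians of -0.94 and -1.35; in the antibody library the members' median was -0.76 and that of all genes -0.07. Combined against antibody, 1 member was higher (Klf3, with 7.81% of all genes higher) and 1 lower (Tcf7, with 9.64% of all genes lower). Combined against Treg-depleted, 3 were higher, namely Bach2, Foxp1 and Klf3, with 4.44% of all genes. In the comparisons of the combined library with the single treatments, Foxo3 lay under the mean of 25 CPM asked of the genes behind these shares. Against the Treg-depleted library Bach2 did also. No member lay under it in the comparisons with the untreated library.

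**Figure D1:**
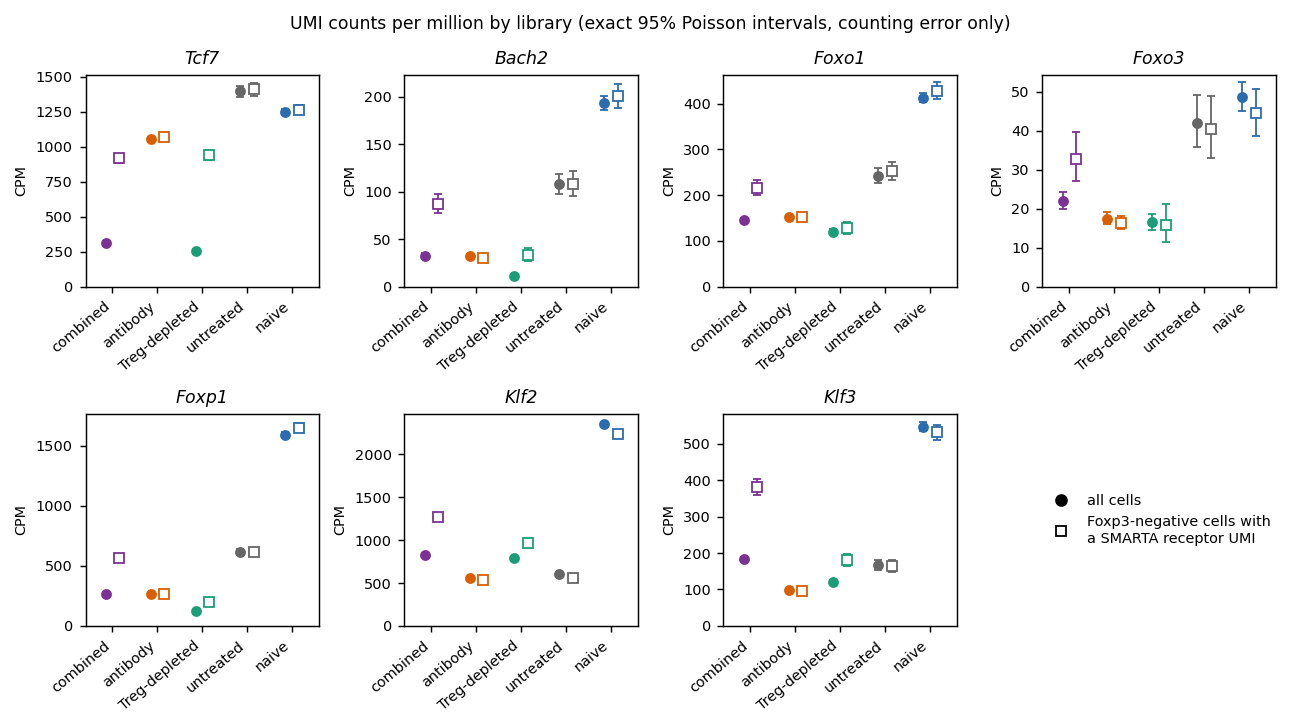
Level of each of the 7 factors in CPM (vertical axis, 1 panel a gene, each with its own scale) in the combined, antibody, Treg-depleted, untreated and naive libraries. Filled circles are all cells, open squares are receptor-positive Foxp3-negative cells, and bars are exact 95% Poisson intervals. Tcf7 lies at 315 CPM over all cells of the combined library and at 919 in its receptor-positive Foxp3-negative cells.

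Foxp3-positive cells held far less Tcf7 and Bach2 than the Foxp3-negative cells of the same library. In the combined library Tcf7 was at 34.1 CPM in Foxp3-positive cells and 775 in Foxp3-negative cells, 22.7-fold lower (95% interval 20.4 to 25.4). In the Treg-depleted library it was at 28.3 CPM in Foxp3-positive and 798 in Foxp3-negative cells, 28.2-fold lower (95% interval 25.1 to 31.7). Bach2 followed, at 4.01 CPM in Foxp3-positive and 79.5 in Foxp3-negative cells of the combined library and at 2.38 CPM in Foxp3-positive and 31.3 in Foxp3-negative cells of the Treg-depleted library. These were the widest gaps of any member in both toxin libraries.

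All 7 members were lower in Foxp3-positive cells of the combined library, where 27.4% of all genes were lower, and 4 of 7 in the Treg-depleted library, with 14.1% of all genes. In the Treg-depleted library the 4 were Tcf7, Bach2, Foxp1 and Klf3. Foxp1 was at 121 CPM in Foxp3-positive and 494 in Foxp3-negative cells of the combined library, and at 84.9 in Foxp3-positive and 209 in Foxp3-negative cells of the Treg-depleted library. Klf3 was at 94.7 CPM in Foxp3-positive and 328 in Foxp3-negative cells of the combined library, with 98.4 in Foxp3-positive and 171 in Foxp3-negative cells of the Treg-depleted library. Both genes were lower in Foxp3-positive cells of either library. The Foxo genes parted between the libraries. Foxo1 was at 118 CPM in Foxp3-positive and 188 in Foxp3-negative cells of the combined library, but at 122 in Foxp3-positive and 117 in Foxp3-negative cells of the Treg-depleted library. Foxo3 was at 16.2 CPM in Foxp3-positive and 31.4 in Foxp3-negative cells of the combined library, while in the Treg-depleted library it was at 16.5 in Foxp3-positive and 16.6 in Foxp3-negative cells. Klf2 was 1.91-fold lower (95% interval 1.85 to 1.98) in the combined library, and its ratio was 0.809 (95% interval 0.780 to 0.839) in the Treg-depleted library.

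**Figure D2:**
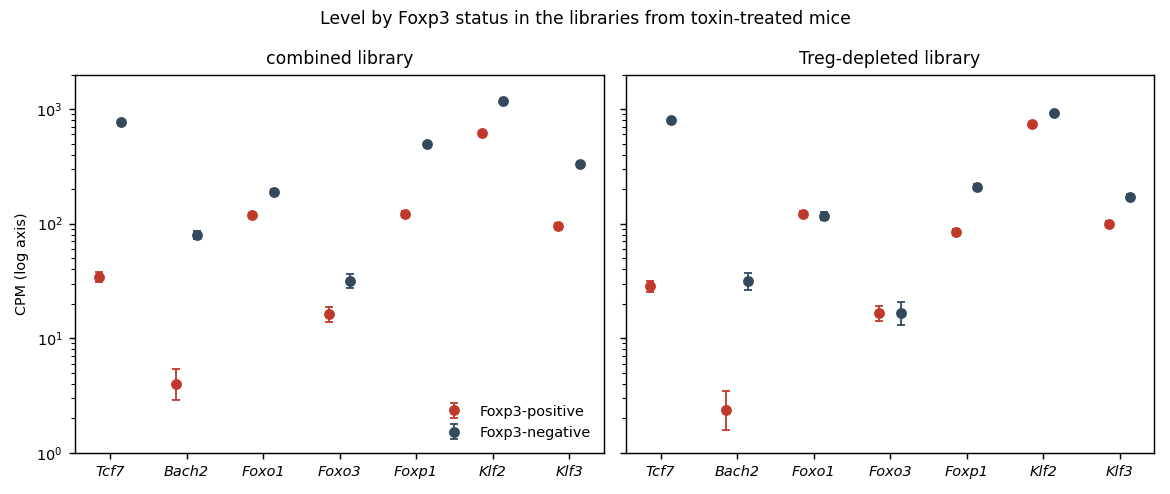
Level of the 7 factors in CPM (log vertical axis) in Foxp3-positive and Foxp3-negative cells of the combined library and of the Treg-depleted library, with exact 95% Poisson intervals. Tcf7 and Bach2 show the widest gaps in both libraries, and in the Treg-depleted library Foxo1 and Foxo3 are each at nearly the same level in both kinds of cell.

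Foxp3-positive cells were also deeper, with medians of 4599 and 6611.5 UMIs in the combined and Treg-depleted libraries, against 1952.5 and 3835.5 in Foxp3-negative cells. In the combined library 1192 Foxp3-positive cells were cycling and 184 non-cycling, compared with 1065 and 534 Foxp3-negative cells. Among non-cycling cells alone, 5 of 7 members were lower in Foxp3-positive cells of the combined library, with 25% of all genes. In the Treg-depleted library 4 were lower, namely Tcf7, Bach2, Foxp1 and Klf2, with 18.5% of all genes. Klf3 was under the 1.5-fold call among these cells. Foxo1 and Foxo3 were higher, with ratios of 1.58 (95% interval 1.25 to 2.00) and 1.63 (95% interval 0.861 to 3.17), the second of which spans 1. Of all genes 11.3% were higher in that comparison. Tcf7 stayed the member with the widest gap there, 8.61-fold lower (95% interval 6.58 to 11.5) in the combined and 34.3-fold lower (95% interval 23.4 to 52.4) in the Treg-depleted library.

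The few Foxp3-positive cells of the antibody and naive libraries had a smaller gap in Tcf7. In the antibody library, over 54 Foxp3-positive cells, Tcf7 had a ratio of 0.587 (95% interval 0.522 to 0.659) to Foxp3-negative cells and Bach2 one of 0.648 (95% interval 0.310 to 1.20), the 2 members lower there although the interval of Bach2 spans 1, with 6.94% of all genes. In the naive library, over 72 such cells, Tcf7 had a ratio of 0.465 (95% interval 0.370 to 0.576), Bach2 of 0.393 (95% interval 0.196 to 0.704) and Foxp1 of 0.584 (95% interval 0.489 to 0.692), and these 3 were lower, with 15.0% of all genes. The untreated library had too few Foxp3-positive cells, 16, for this comparison. The differences between libraries in these ratios were not tested.

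Within the Foxp3-positive cells of the toxin libraries, the summed Tcf7 level was higher in those with a SMARTA receptor UMI than in those without. In the combined library Tcf7 was at 99.7 CPM in receptor-positive and 16.8 CPM in receptor-negative Foxp3-positive cells, a ratio of 5.94 (95% interval 4.78 to 7.40). In the Treg-depleted library it was at 72.6 CPM in receptor-positive and 14.7 CPM in receptor-negative ones, a ratio of 4.95 (95% interval 3.94 to 6.24). Bach2 was higher too, by 3.44-fold (95% interval 1.78 to 6.61) and 3.01-fold (95% interval 1.30 to 6.90). It rested on 20 receptor-positive and 22 receptor-negative UMIs in the combined library and on 13 and 14 in the Treg-depleted one. In neither library did Bach2 reach the minimum asked of the genes behind the shares of all genes. Klf3 was higher by 1.85-fold in the combined library. That makes 3 of 7 members in the combined library, with 1.62% of all genes, and 2 of 7 in the Treg-depleted library, with 0.84% of all genes. Even so, the receptor-positive Foxp3-positive levels of Tcf7 were below those of receptor-positive Foxp3-negative cells, 919 CPM in the combined and 941 CPM in the Treg-depleted library. Doublets were left in and free RNA could not be bounded closely. The part of either in the levels of Foxp3-positive cells was not tested.

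In receptor-positive Foxp3-negative cells, the combined treatment stood nearer to the naive level than either single treatment for 6 of 7 factors, and for 4 of them, Bach2, Foxo3, Foxp1 and Klf3, it was at least 1.5-fold above both. Of all genes compared, 57.3% met the first criterion and 10.3% the second, the genes being those that averaged 25 CPM or more over the 4 libraries concerned. Over all cells the first count was 4 of 7, with 33.7% of all genes, and the second 1 of 7, with 1.34%. Tcf7 was the exception: its level was below that of the antibody library and no different from that of the Treg-depleted library beyond counting error. Against the untreated library, Klf2 and Klf3 stood above it and the other 5 did not when cells of all depths were summed.

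Summed over all depths, Klf3 and Klf2 were higher with the combined treatment than in the untreated lymph node. Klf3 was at 381 CPM in the combined, 96.3 in the antibody, 181 in the Treg-depleted, 163 in the untreated and 532 in the naive library, and the combined level was 71.7% (95% interval 67.0 to 76.7) of the naive one, against 18.1% with antibody and 34.0% with toxin. The combined library had 3.96 (95% interval 3.69 to 4.24) times the Klf3 of the antibody library, 2.10 (95% interval 1.90 to 2.34) times that of the Treg-depleted library and 2.33 (95% interval 2.09 to 2.61) times that of the untreated library. The combined library was the highest of the 4 lymph node libraries for Klf3, and the antibody library the lowest. Klf2 was at 1266 CPM in the combined, 539 in the antibody, 962 in the Treg-depleted, 561 in the untreated and 2242 in the naive library. For Klf2 the combined level was 56.5% (95% interval 54.5 to 58.5) of naive, 2.35 (95% interval 2.27 to 2.43) times the antibody level and 2.26 (95% interval 2.13 to 2.40) times the untreated level. Against the Treg-depleted library the ratio of Klf2 was 1.32 (95% interval 1.25 to 1.38), under 1.5-fold, and the Treg-depleted library itself stood above the untreated one, with a ratio of 1.71 (95% interval 1.61 to 1.83).

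The forkhead genes lay between 0.813 and 0.919 times the untreated level when all depths were summed, and lower than that in cells of 4000 or more UMIs. Foxp1 was at 567 CPM in the combined, 264 in the antibody, 199 in the Treg-depleted, 617 in the untreated and 1651 in the naive library. Its combined level was 34.4% (95% interval 32.7 to 36.1) of naive, against 16.0% with antibody, 12.0% with toxin and 37.4% without treatment, and the ratio of combined to untreated was 0.919 (95% interval 0.859 to 0.983). Foxp1 was 2.15 (95% interval 2.04 to 2.27) times as high as in the antibody library and 2.85 (95% interval 2.60 to 3.14) times as high as in the Treg-depleted library. Foxo3 was at 32.8 CPM in the combined, 16.4 in the antibody, 15.8 in the Treg-depleted, 40.4 in the untreated and 44.4 in the naive library, with the combined level at 74.0% (95% interval 58.2 to 93.5) of naive, and it did not differ from the untreated level beyond counting error, with a ratio of 0.813 (95% interval 0.616 to 1.07). For both genes the single treatments were the 2 lowest libraries, below the combined and the untreated one. Foxo1 was at 216 CPM in the combined, 152 in the antibody, 128 in the Treg-depleted, 252 in the untreated and 428 in the naive library. Its combined level was 50.4% (95% interval 46.2 to 54.9) of naive and 1.69 (95% interval 1.49 to 1.92) times the Treg-depleted level, but only 1.42 (95% interval 1.31 to 1.54) times the antibody level.

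Bach2 stood further above the antibody library than any other factor that stayed below the untreated level, and Tcf7 stood above neither single treatment. Bach2 was at 87.4 CPM in the combined, 29.8 in the antibody, 33.6 in the Treg-depleted, 108 in the untreated and 201 in the naive library, and the combined library had 2.94 (95% interval 2.55 to 3.38) times the antibody level and 2.60 (95% interval 2.06 to 3.31) times the Treg-depleted level. It reached 43.6% (95% interval 38.1 to 49.7) of naive in the combined library, and 14.8% and 16.8% with antibody and toxin alone. Tcf7 was at 919 CPM in the combined, 1068 in the antibody, 941 in the Treg-depleted, 1411 in the untreated and 1264 in the naive library. The ratio of combined to antibody was 0.860 (95% interval 0.828 to 0.893) and that of combined to Treg-depleted 0.976 (95% interval 0.926 to 1.03). With Foxp3-positive and receptor-negative cells out, the 4 lymph node libraries therefore held between 72.6% and 112% of the naive Tcf7 level, where over all cells they held between 20.6% and 112%.

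In counts at 1.5-fold, 5 of 7 members were higher in receptor-positive Foxp3-negative cells of the combined library than of the antibody library (Bach2, Foxo3, Foxp1, Klf2 and Klf3), with 15.7% of all genes, and 0 were lower. Against the Treg-depleted library 5 were higher (Bach2, Foxo1, Foxo3, Foxp1 and Klf3), with 15.7% of all genes, and 0 lower. The members' median log2 ratios were 1.10 and 1.06, against 0.02 and 0.06 over all genes compared. The 2 comparisons share the combined library. Against the untreated library 2 were higher (Klf2 and Klf3), with 8.43% of all genes, and 1 lower (Tcf7), with 7.21%. With antibody alone 5 were lower than without treatment, with 7.29% of all genes. With toxin alone 4 were lower, with 12.9%, and 1, Klf2, higher, with 7.28%. Against naive cells 4 of 7 were lower with the combined treatment and 18.9% of all genes, 6 with antibody alone and 29.1%, 6 with toxin alone and 30.4%, and 5 without treatment and 18.4%.

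**Figure D3:**
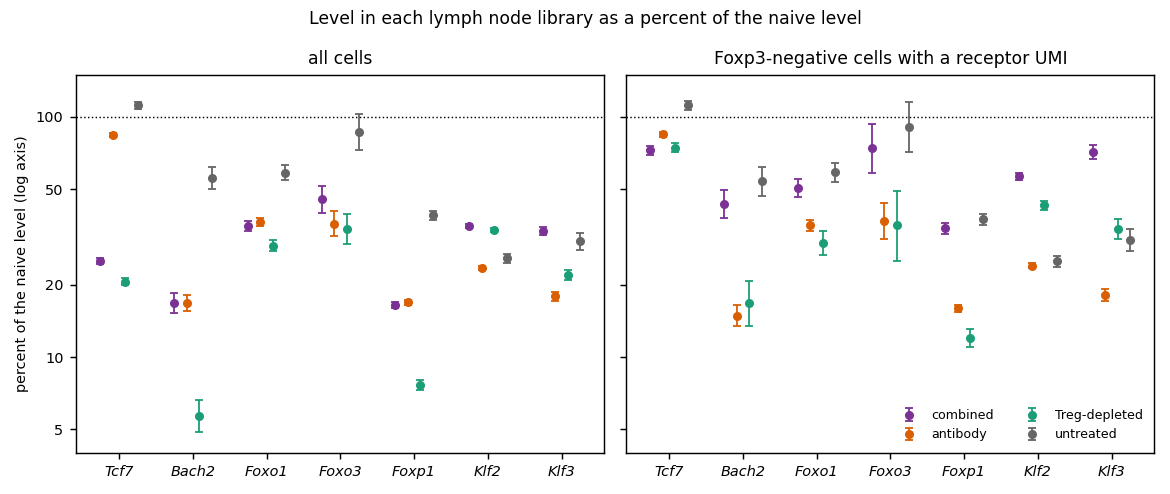
Level of the 7 factors in the 4 lymph node libraries as a percent of the naive level (log vertical axis), over all cells on the left and over receptor-positive Foxp3-negative cells on the right, with exact 95% intervals. On the right the combined library lies above both single treatments for each factor but Tcf7, and for Klf3 it reaches 71.7% of naive.

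The receptor-positive Foxp3-negative cells of the combined library also differed from those of the other libraries in depth and in other gene groups. Their median was 2182.5 UMIs, against 5149 in the antibody, 4443 in the Treg-depleted, 3483 in the untreated and 1773 in the naive library. The 10 listed genes of a dissociation stress list of 12 summed to 5626 CPM in the combined, 1348 in the antibody, 2093 in the Treg-depleted, 2671 in the untreated and 2668 in the naive library. Genes of the plasma cell list, 8 of 8 of them listed, summed to 1676 CPM in the combined, 139 in the antibody, 120.4 in the Treg-depleted, 85.0 in the untreated and 80.9 in the naive library. The Treg list, with 9 of its 10 genes above 0 and Foxp3 at 0 because of how the cells were chosen, summed to 2169 CPM in the combined, 1244 in the antibody, 1409 in the Treg-depleted, 1365 in the untreated and 239 in the naive library. The part of these differences in the levels of the 7 factors was not tested, but the levels were computed again in cells of like depth and in cells low in stress genes.

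The CPM of a gene differed with the depth of the cells within a library, as Foxp1 shows. Among Foxp3-negative cells, Foxp1 was at 624 CPM in combined cells below 2000 UMIs, 550.4 CPM in those of 2000 up to 4000 and 259 CPM in those of 4000 or more. In the antibody library the same 3 classes had 744, 437 and 228 CPM. The sum over a library thus depends on how its cells are spread over depth. No naive cell reached 4000 UMIs, so the return toward the naive level was read only in the lower classes. Among Foxp3-negative cells the combined library was nearer to naive than both single treatments for 6 of 7 members in all (56.2% of all genes), for 4 of 7 (Bach2, Foxo3, Foxp1 and Klf3) at 2000 up to 4000 UMIs (43.2%) and for 2 of 7 (Klf2 and Klf3) below 2000 (32.7%). It was at least 1.5-fold above both for 4 of 7 in all (7.39% of all genes), for 1 of 7, Bach2, at 2000 up to 4000 UMIs (4.87%) and for 0 of 7 below 2000 (2.97%).

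At matched depth, fewer members stood higher with the combined treatment, and Klf3 exceeded the antibody library in every depth class. In receptor-positive Foxp3-negative cells of 2000 up to 4000 UMIs (631 combined, 910 antibody and 172 Treg-depleted cells), 3 of 7 members were higher than with antibody alone, namely Bach2 (1.97), Klf2 (1.69) and Klf3 (2.44), with 10.7% of all genes. Against the Treg-depleted library 3 were higher there, namely Bach2 (1.65), Foxp1 (1.75) and Klf3 (1.76), with 12.1% of all genes. At 4000 or more UMIs, over 128 combined cells, 4 were higher than with antibody (Bach2 1.94, Foxo3 1.91, Foxp1 1.77 and Klf3 2.87), with 10.3% of all genes, and Tcf7 was lower (ratio 0.641), with 8.33% lower. Against toxin alone 4 were higher in those deep cells, namely Bach2, Foxo1, Foxo3 and Foxp1, with 10.9% of all genes. Below 2000 UMIs only Klf2 (2.07) and Klf3 (2.11) were higher than with antibody, with 15.1% of all genes. Bach2 had a ratio of 1.02 (95% interval 0.608 to 1.78) and Foxp1 one of 0.842 (95% interval 0.705 to 1.01). The Treg-depleted library had only 43 such cells and was not compared. Over all Foxp3-negative cells of 4000 or more UMIs, receptor-positive or not, only Klf3 of Bach2, Foxo3, Foxp1 and Klf3 stayed at least 1.5-fold above antibody. Over 248 combined cells, Bach2 was at 29.9 CPM (95% interval 22.2 to 39.3) against 27.4 with antibody. Foxo3 was at 15.2 CPM (95% interval 9.95 to 22.3) against 14.4, so both antibody levels lay inside these intervals. Foxp1 was at 259 CPM against 228 and Klf3 at 154 against 82.5. Tcf7 was lower, at 423 CPM against 994. With toxin alone Bach2 was at 16.2 CPM, Foxo3 at 13.1 and Foxp1 at 142. Foxo1 was at 134 CPM in combined and 98.2 in Treg-depleted cells.

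Tcf7 was below the antibody level in each depth class, with ratios of 0.670, 0.713 and 0.641 in order of depth. Klf2 against the Treg-depleted library had ratios of 0.995 (95% interval 0.914 to 1.08) at 2000 up to 4000 UMIs and 0.851 (95% interval 0.775 to 0.932) at 4000 or more, so that its excess over toxin alone was not present in either class. In receptor-positive Foxp3-negative cells with at most 2 dissociation stress UMIs after thinning to 1000 UMIs per cell, a split chosen after the stress sums were seen, 247 combined, 2550 antibody and 308 Treg-depleted cells were left. There 4 members were higher than with antibody, namely Bach2 (2.28), Foxp1 (1.63), Klf2 (1.85) and Klf3 (3.06), with 10.3% of all genes. Against toxin alone 5 were higher, namely Bach2, Foxo1, Foxo3, Foxp1 and Klf3, with 10.9% of all genes.

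Relative to the untreated library, the combined one stood lower in deep cells than the sums over all depths show. In receptor-positive Foxp3-negative cells of 4000 or more UMIs (128 combined and 237 untreated cells), Foxp1 was at 403 CPM in combined and 534 CPM in untreated cells, a ratio of 0.755 (95% interval 0.661 to 0.862). Foxo1 had a ratio of 0.774 (95% interval 0.631 to 0.947), Foxo3 one of 0.719 (95% interval 0.410 to 1.22), Bach2 one of 0.493 and Tcf7 one of 0.482. Klf3 was at 240.1 CPM in combined and 160.4 CPM in untreated cells there, a ratio just under 1.5 (95% interval 1.23 to 1.82), and Klf2 had one of 1.93 (95% interval 1.71 to 2.17). At 1.5-fold 1 of 7 was higher, Klf2, with 9.31% of all genes, and 2 were lower, Bach2 and Tcf7, with 12.4%. Over all Foxp3-negative cells of that depth, receptor-positive or not, these ratios were lower still, at values of 0.489 for Foxp1, 0.615 for Foxo1, 0.418 for Foxo3 and 1.01 for Klf3. Cells of 2000 up to 4000 UMIs gave 2 of 7 higher, Klf2 (1.96) and Klf3 (2.43), with 8.94% of all genes, and 1 lower, Tcf7 (0.648), with 9.24%. Below 2000 UMIs Klf3 alone was higher, at 3.02 times the untreated level, with 18.1% of all genes. In cells with at most 2 stress UMIs Klf2 and Klf3 were higher, with 7.98% of all genes, and Bach2, Foxo3 and Tcf7 lower, with 10.6%.

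**Figure D4:**
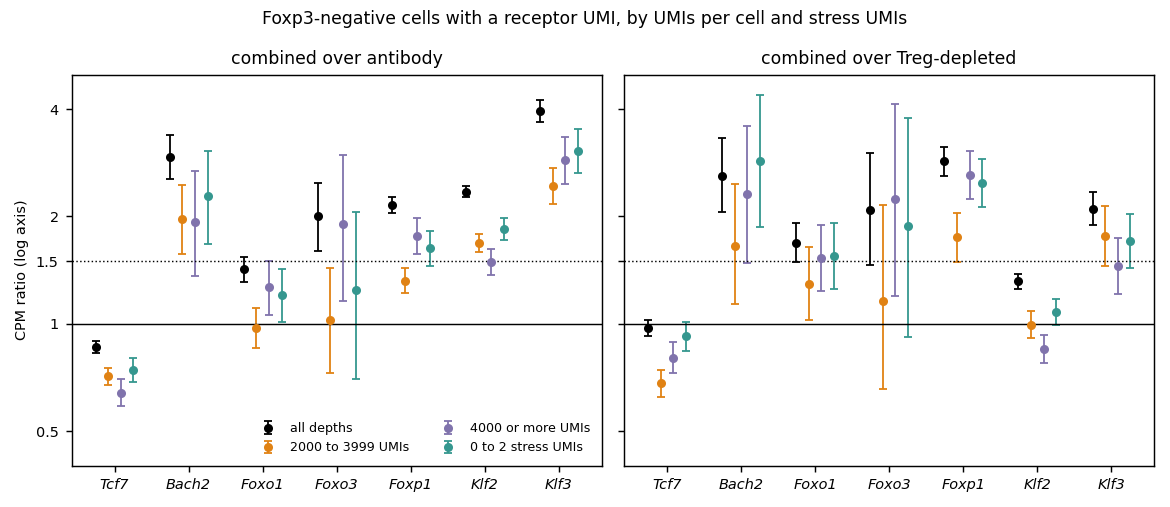
Ratio of the combined to the antibody library and of the combined to the Treg-depleted library for the 7 factors in receptor-positive Foxp3-negative cells (log vertical axis, exact 95% intervals), at all depths, at 2000 up to 4000 UMIs, at 4000 or more UMIs and in cells with 0 to 2 stress UMIs. The dotted line marks 1.5-fold, above which Klf3 lies in all 4 classes against the antibody library.

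Cycling cells held less of most factors than non-cycling cells in the 3 treated libraries. In the combined library the difference was under 1.5-fold for every factor once cells with a Foxp3 UMI were set aside. A cell was called cycling with UMIs of 2 or more of 58 cell cycle genes after thinning to 1000 UMIs, and non-cycling with none. Cycling cells made up 57.0% of the combined library, 49.5% of the antibody library, 58.6% of the Treg-depleted library, 24.4% of the untreated library and 16.0% of the naive library. Naive T cells rarely divide, and the naive share is given as the level of this call in cells labelled naive.

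In the combined library 5 of 7 members were lower in cycling cells, with 24.3% of all genes, and in the Treg-depleted library 6 of 7, with 20%. In the antibody library 4 of 7 were lower, with 10.5% of all genes, and in the untreated and naive libraries 0, with 4.44% and 0.177%. In cells called cycling, the division marker gene Mki67 was at 703 CPM in the combined, 533 in the antibody and 755 in the Treg-depleted library. It was at 201 CPM in the untreated and 7.35 in the naive library. With so little Mki67, the naive comparison cannot show whether the factors differ with division. The untreated count changed under other cycling calls, as given at the end. Tcf7 was 3.30-fold lower (95% interval 3.07 to 3.55) in cycling cells of the combined library and 2.98-fold lower (95% interval 2.75 to 3.22) in the Treg-depleted library, but its ratio was 0.805 (95% interval 0.782 to 0.830) in the antibody library. Klf3 was 2.47-fold lower (95% interval 2.25 to 2.72) in the combined, 1.91-fold lower (95% interval 1.74 to 2.10) in the antibody and 1.72-fold lower (95% interval 1.52 to 1.94) in the Treg-depleted library. Klf2 was under the 1.5-fold call in each library.

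Within Foxp3-negative cells, the cycling difference of the combined library was under 1.5-fold for all 7 members, with 4.57% of all genes lower. In Foxp3-negative cells of the antibody library 4 of 7 were lower, with 10.4% of all genes, and these were Bach2 (1.71-fold lower), Foxo3 (2.43-fold lower), Foxp1 (1.84-fold lower) and Klf3 (1.91-fold lower). In the Treg-depleted library 3 were lower, with 11.8% of all genes, and these were Tcf7 (1.60-fold lower), Bach2 (1.63-fold lower) and Foxp1 (2.04-fold lower). In the untreated and naive libraries 0 were lower, with 4.8% and 0.177% of all genes, and the limit of the naive comparison given above holds here too. For Foxp1, cycling Foxp3-negative cells had 421 CPM and non-cycling ones 512 CPM in the combined library, and in the antibody library cycling ones had 213 CPM and non-cycling ones 393 CPM. Depth moved along: median UMIs of cycling and non-cycling Foxp3-negative cells were 2162 and 2119.5 in the combined library, 6763 and 3872 in the antibody library, and 5399 and 3418 in the Treg-depleted library. The part of depth in these ratios was not tested.

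Foxp3-positive cells of the toxin libraries showed the split within themselves. In cycling Foxp3-positive cells 5 of 7 members were lower in the combined library, with 22.9% of all genes, and 4 of 7 in the Treg-depleted library, with 22.0%. Klf2 had ratios above 1 there, 1.20 (95% interval 1.07 to 1.35) in the combined and 1.25 (95% interval 1.14 to 1.36) in the Treg-depleted library. Among non-cycling Foxp3-negative cells, the combined library still stood nearer to naive than both single treatments for 6 of 7 members, with 45.2% of all genes, and 2 of them were at least 1.5-fold above both, with 6.55%.

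**Figure D5:**
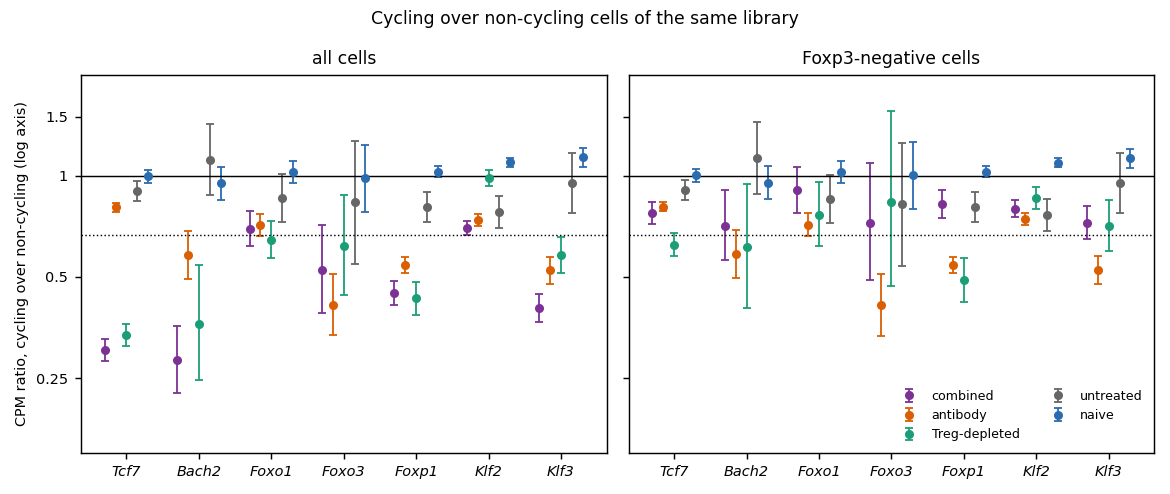
Ratio of cycling to non-cycling cells for the 7 factors in each of the 5 libraries (log vertical axis, exact 95% intervals), over all cells on the left and over Foxp3-negative cells on the right. The dotted line marks 1.5-fold lower. In the combined library Tcf7 lies at 0.303 on the left and at 0.773 on the right.

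With all depths summed, genes known to be switched on by these factors were more often higher than lower with the combined treatment in receptor-positive Foxp3-negative cells. As given above, these cells of the combined library also differed in depth and in stress genes. The part of either in the counts of this list and of the gene lists below was not tested. Of 17 listed genes of a target list of 18, 15 could be compared with the antibody library, of which 10 were higher and 2 were lower; of all genes 15.7% were higher and 11.4% lower. Their median log2 ratio was 0.94, against 0.02 over all genes. Against the Treg-depleted library 6 of 15 were higher and 1 lower (of all genes 15.7% and 8.18%), with a median of 0.53 against 0.06. S1pr1, the exit receptor that Klf2 switches on, was at 326 CPM in the combined and 128 CPM in the antibody library, a ratio of 2.55 (95% interval 2.37 to 2.73). Pik3ip1, an inhibitor of PI3K, had a ratio of 2.58 to the antibody and 1.68 to the Treg-depleted library. Btg2, an antiproliferative gene, had one of 1.63 to the Treg-depleted library. Il6ra, the interleukin 6 receptor gene, went the other way, at 62.7 CPM in the combined, 176 CPM in the antibody and 101 CPM in the Treg-depleted library.

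Relative to the untreated library, the same targets were about even with the combined treatment, as 3 were higher and 4 lower of 16, at a median log2 ratio of -0.01. Of all genes 8.43% were higher and 7.21% lower in that comparison. With antibody alone 0 were higher and 9 lower of 16, with a median of -0.77, where 7.29% of all genes were lower. With toxin alone 1 was higher and 7 lower of 15, with a median of -0.51, where 7.28% of all genes were higher and 12.9% lower. Genes that these factors hold down gave a mixed picture. Against the Treg-depleted library 1 of 12 was higher and 6 lower in the combined library, and against the antibody library 2 of 10 were higher and 2 lower. Of all genes 15.7% were higher and 8.18% lower in the combined than in the Treg-depleted library. Against the antibody library 15.7% of all genes were higher and 11.4% lower. The median log2 ratios of the held-down genes were -0.60 to the Treg-depleted and 0.04 to the antibody library, against 0.06 and 0.02 over all genes. Ifng, the gene of interferon gamma, was at 20.2 CPM in the combined and 101 CPM in the Treg-depleted library. Gzmb, a cytotoxic granule protease gene, was at 76.2 CPM in the combined and 226 CPM in the Treg-depleted library, and had 2 UMIs in the antibody library. Cxcr3, a chemokine receptor gene of effector cells, was at 71.4 CPM in the combined, 219.7 CPM in the antibody and 226 CPM in the Treg-depleted library. The chemokine gene Ccl5 was higher in both comparisons, at 196 CPM in the combined, 14.5 CPM in the antibody and 21 CPM in the Treg-depleted library. Irf4, an effector transcription factor gene, was at 15.7 CPM in the combined and 57.0 CPM in the antibody library.

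Of 21 other quiescence and naive-state factors that could be compared, 10 were higher and 2 lower in the combined than in the antibody library, and 9 of 21 were higher and 0 lower than in the Treg-depleted library; the median log2 ratios were 0.51 and 0.46, against 0.02 and 0.06 over all genes. Of all genes 15.7% were higher and 11.4% lower than in the antibody library, and 15.7% and 8.18% than in the Treg-depleted one. Myb, a factor of stem-like and memory T cells, was at 813 CPM in the combined, 137 CPM in the antibody and 209 CPM in the Treg-depleted library. Tsc22d3, a glucocorticoid-induced gene, was at 174 CPM in the combined, 32.5 CPM in the antibody and 68.6 CPM in the Treg-depleted library. Klf6, a further KLF gene, was at 276, 71.0 and 86.8 CPM in the same libraries. Each of the 3 was highest in the combined library among these libraries. Peli1, a ubiquitin ligase gene that restrains T cell activation, had a ratio of 2.21 to the antibody library, and Zeb1, a zinc finger repressor, had one of 1.89 to the Treg-depleted library.

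Over all cells of the 5 libraries, the members fell into pairs by the shape of their pattern, as the root mean square difference of log2 CPM after centring each gene on its own mean. Foxo1 and Foxo3 lay 0.223 apart, Bach2 and Foxp1 0.300 and Klf2 and Klf3 0.303, while Tcf7 was at least 0.709 from every other member. The widest distance was between Bach2 and Klf2, at 1.21. Among the 6641 genes that averaged 25 CPM or more, those most like Tcf7 were Bcl9 (0.125), Dusp10 (0.129) and Id3 (0.152). Id3 is an inhibitor of E proteins that is expressed in naive and memory T cells, and Dusp10 encodes a phosphatase of stress kinases. Those most like Bach2 were Zbtb20 (0.236), Foxp1 (0.300) and Als2cl (0.305), the second of which is itself a member. Those most like Foxp1 were Als2cl (0.133), Gm42722 (0.135) and Ssbp2 (0.186). The genes nearest to Klf3 were P2rx4 (0.0752), S1pr1 (0.134) and Pitpnc1 (0.167), S1pr1 being the exit receptor gene already described. Nearest to Klf2 were Sgms1 (0.145), Ppp3ca (0.175) and Snhg20 (0.178); to Foxo1, Usp24 (0.0404), Jakmip1 (0.0523) and Rb1cc1 (0.0542); and to Foxo3, Fam169b (0.103), Zfp281 (0.106) and Pnrc1 (0.151). With 5 points that differ in Foxp3-positive share and depth, likeness here is a description of these libraries.

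Counted cell by cell after thinning to 1000 UMIs, more of the 7 factors were detected per receptor-positive Foxp3-negative cell in the combined library than in the single treatments. The mean number of the 7 with a UMI was 2.29 per receptor-positive Foxp3-negative cell in the combined library, 1.56 in the antibody, 1.78 in the Treg-depleted, 1.98 in the untreated and 3.14 in the naive library. Cells with 3 or more members made up 41.4% in the combined, 16.9% in the antibody, 26.6% in the Treg-depleted, 30.5% in the untreated and 71.3% in the naive library. Over all cells the combined share was 24.3%, against 17.4% with antibody and 11.9% with toxin. The means over all cells were closer, at 1.60 in the combined, 1.57 in the antibody and 1.19 in the Treg-depleted library. Cells with none of the factors made up 22.3%, 13.6% and 29.3% in the same order. Thinning evens the UMIs counted per cell, but the libraries still differ in the depth of their cells before thinning. The part of that depth, and of the stress genes, in these counts was not tested.

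The share of cells with a Tcf7 UMI differed between Foxp3-positive and Foxp3-negative cells. After thinning it had a UMI in 4.67% of Foxp3-positive and 53.3% of Foxp3-negative cells of the combined library (unthinned 8.79% and 72.4%), and in 1.73% and 54.4% in the Treg-depleted library (unthinned 6.92% and 78.4%). In Foxp3-negative cells of the antibody, untreated and naive libraries it was in 65.8%, 72.7% and 67.3%. Free RNA was gauged in cells with 3 or more B cell genes, which should lack Tcf7: it was in 0 of 6 such cells of the combined library (median 9474.5 UMIs before thinning), in 1 of 24 of the antibody library (5266.5 UMIs) and in 0 of 10 of the Treg-depleted library (19283 UMIs). So few background cells allow shares of up to 45.9% in the combined and 30.8% in the Treg-depleted library (exact binomial upper bounds), above those of the Foxp3-positive cells, and those low shares are not read as expression.

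The counts of 5 members can include reads of overlapping genes, since the strand setting of the counting is not given in the sources used here. In GENCODE M21 Tcf7 overlaps the lincRNA Gm26551 at its 3′ end on the same strand, Foxp1 overlaps Gm20696 on the same strand, and Bach2, Foxo1 and Klf3 overlap intronic, antisense or unclassified transcripts. No annotated gene overlaps Foxo3 or Klf2.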

How the data were processed

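Each library has a deposited table of raw UMI counts, with genes in rows and cells in columns. The submitters' processing notes list Cell Ranger 6.0.0, bcl2fastq 2.20, Seurat 4.0.4, R 4.1.1 and the mm10 build, and per the labels libraries were made with a droplet 3′ kit. No further filter removed cells (200 or more genes and at most 10% mitochondrial UMIs removed 0 of 20149), doublets were left in, and genes outside the 11924 listed were not analysed here, so CPM refer to listed genes. UMIs were summed per class of cells and scaled to CPM in Python 3.11.15 with numpy 2.4.6, scipy 1.17.1 and pandas 2.3.3. Levels carry exact Poisson intervals, ratios exact conditional binomial (Clopper-Pearson) ones. With 1 library a group there was no test and no P value. A count of 0 was set to 3 UMIs for ratios. Shares of all genes at 1.5-fold are over genes that averaged 25 CPM or more and had 30 UMIs over both classes; members are counted whether or not they passed. Classes with under 50 cells were not compared. TMM factors came from edgeR 4.0.16 in R 4.3.3, as an alternative only. The ratio code was tested on simulated counts. The members and the gene lists were chosen with earlier results of these data known. Named beside the members are the 3 genes most alike to each and, per list and comparison, up to 4 genes of the largest log2 ratio, of which 1 is not reported here.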

Additional observations from a re-analysis of the deposited data

Results flagged for a closer look

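For 3 factors over all cells, and 5 in receptor-positive Foxp3-negative cells, the antibody went with opposite directions depending on the toxin: higher where it was added to toxin (combined over Treg-depleted) and lower where it was given alone (antibody over untreated). Over all cells the log2 ratios with and without toxin were 1.57 and -1.73 for Bach2, 1.11 and -1.20 for Foxp1 and 0.61 and -0.76 for Klf3. In receptor-positive Foxp3-negative cells they were 1.38 and -1.86 for Bach2, 0.76 and -0.73 for Foxo1, 1.06 and -1.30 for Foxo3, 1.51 and -1.23 for Foxp1, and 1.07 and -0.76 for Klf3. The toxin likewise went with opposite directions for 3 of these in receptor-positive Foxp3-negative cells, higher where antibody was also given (combined over antibody) and lower where it was not (Treg-depleted over untreated): 1.55 and -1.69 for Bach2, 1.00 and -1.36 for Foxo3, and 1.10 and -1.63 for Foxp1. A factor is named here where both ratios passed 1.5-fold in opposite directions, a rule applied to the members only. How many of all genes meet the rule is not known, so these counts cannot be set against a share of all genes. The ratios over all cells also join libraries that differ in their share of Foxp3-positive cells. Each effect is 1 library against 1 library, so the difference between effects was not tested. The depth of the cells and the stress gene sums moved with the combined library. In receptor-positive Foxp3-negative cells of 2000 up to 4000 UMIs, Foxo1 and Foxo3 were not 1.5-fold above the Treg-depleted library. Foxo3 and Foxp1 were not 1.5-fold above the antibody library there. At 4000 or more UMIs only Klf3 of the 5 fell short against the Treg-depleted library, and none of the 3 against the antibody library. Single treatments against untreated are not given by depth, and the part of depth and stress was not tested.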

How the results depend on the processing

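Member counts are compared here with the same counts under other choices. They cover the library comparisons over all cells, cycling state, Foxp3 status and the return toward naive in the combined library. Under the alternatives, 231 such values stayed within 1.5 times the count reported and 47 did not. The 231 include counts of 0 that stayed 0. They also include settings that moved no count, such as 0.5 UMIs added to every count, where all 18 stayed. With Foxp3-negative cells only, 16 stayed and 8 did not, and with at most 2 stress UMIs 1 stayed and 5 did not. The tally over all settings is therefore no measure of how stable a given count is. Shares of all genes are not given beside these counts, so a changed count does not show whether all genes moved alike. Foxp3-negative cells only: combined over antibody 5 higher and 0 lower, combined over Treg-depleted 5 higher, combined against untreated 2 higher and 1 lower, Treg-depleted over untreated 1 higher, and in cycling cells 0 lower in the combined and 3 in the Treg-depleted library. Receptor-positive Foxp3-negative cells only: 5 higher and 0 lower, 5 higher, 2 higher and 1 lower, and 1 higher for the same 4 comparisons, and combined against naive 4 lower. A call at 2-fold: combined over antibody 0 higher, and 3 lower for combined and antibody against untreated and untreated against naive. Cells above 3 times the median UMIs left out: combined over antibody 4 higher, combined against untreated 2 higher and 3 lower. TMM scaling: combined over antibody 2 higher, combined and Treg-depleted over untreated 1 higher each. Mean CPM of single cells: combined over antibody 3 higher, combined against untreated 1 higher and 3 lower, antibody against untreated 3 lower. Only members of 100 CPM or more on average: 3 lower for each of combined, antibody and Treg-depleted against untreated. Non-cycling cells only: combined over antibody 2 higher, combined against untreated 2 higher and 3 lower, antibody against untreated 2 lower. At most 2 stress UMIs, chosen after seeing the data: combined over antibody 4 higher and 0 lower, combined over Treg-depleted 5 higher, combined against untreated 2 higher and 3 lower. Cycling defined by 3 or more genes gave 2 lower in the untreated library, by mitosis genes alone 1 in the untreated and 1 in the naive library, and without thinning 1 in the untreated library. Foxp3 status called after thinning gave 2 lower in the Treg-depleted library. Calling it by Foxp3 or Il2ra gave 1 lower in the antibody library and reversed Bach2 there, to a log2 ratio of 0.53. The causes of these shifts were not tested. Foxp3 status after thinning and in non-cycling cells was not run for the antibody and naive libraries, which had under 50 Foxp3-positive cells left, and no doublet caller was run. No paired analysis was possible because each group is 1 library and the result comes from no test. Counts limit Bach2 and Foxo3 most, and all intervals leave out variation between mice.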
